A study of Mus musculus with 18 samples.

Results

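The cytosolic ribosomal protein genes were taken by name: a gene counted when its symbol was Rpl or Rps with a number and at most a single letter (a, x, y or l) and a single digit after it, or was Rplp0, Rplp1, Rplp2 or Rpsa. Rpl10l was left out, and symbols of other forms, such as Rpl36al and those of the S6 kinase genes, do not match. Rps4l and Rpl32l match by name although annotations list them, or the transcript matched to them, as pseudogenes. The rule found 84 of the 24505 genes listed. Of these, 43 encode core proteins of the large subunit, 31 encode core proteins of the small subunit, and 3 encode the acidic stalk (Rplp0, Rplp1, Rplp2). The other 7 are extra copies, Rpl3l, Rpl7l1, Rpl22l1, Rpl32l, Rpl39l, Rps4l and Rps27l. The 77 genes that are not extra copies are called core members here. RNA was sequenced from 18 libraries of E14Tg2a mouse embryonic stem cells, a feeder-free line of male origin. The cells were null for Daxx, which encodes a chaperone of the histone variant H3.3, or were wild type. Each genotype was grown in retinoic acid, in 2i or in serum, with 3 libraries in each of the 6 groups.

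The retinoic acid cultures spent 24 h without leukaemia inhibitory factor (LIF) and then 4 days in 10 µM retinoic acid, after growth in serum with LIF, which the labels call neuronal differentiation. The 2i cultures held inhibitors of Gsk3 and of Mek, LIF and vitamin C at 100 µg/mL in a medium without serum. The serum cultures held serum with LIF at 1000 units/mL. Serum and 2i medium therefore differ in far more than the 2 inhibitors. The labels name 1 Daxx-null line and do not say how many clones it holds or whether replicates were separate cultures in time. The p-values below measure the spread between these samples.

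Each ribosome is built from ribosomal RNA and one copy of most of these proteins, and the stalk proteins recruit the elongation factors. Ribosomal proteins are made in the cytoplasm, imported into the nucleus and joined to ribosomal RNA in the nucleolus, where RNA polymerase I makes that RNA. Their transcripts are among the most abundant in dividing cells. They typically begin with a C that is followed by a run of C and T, the 5′ terminal oligopyrimidine (TOP) tract, through which mTORC1 controls their translation. The extra copies are paralogs or retrocopies of core genes, several of which are made in few tissues.

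Starts of the transcripts are shown because the tract is typical of this class, though other transcripts carry it too. Its part in the RNA levels was not tested. The RefSeq promoter table (GRCm38.p6) held 75 starts of 63 members. A C followed by at least 4 C or T was looked for on the transcribed strand only. In 14 of the 75 member starts (18.7%) the tract began exactly at the annotated start, against 2.51% of 32851 starts of all genes. It began within 10 bases of the start in 54.7% of member starts and in 30.7% of all starts. The first 6 lines below have the tract at the annotated start, and the last 4 are Rpl39 and 3 extra copies described later. Each line gives 30 bases, of which the first 10 precede the start, with the tract in capitals.

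Rps18, chr17:33955646-33955675, minus strand: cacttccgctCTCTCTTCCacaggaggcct
Rps27, chr3:90213629-90213658, minus strand: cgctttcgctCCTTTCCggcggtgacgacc
Rpl35, chr2:39005112-39005141, minus strand: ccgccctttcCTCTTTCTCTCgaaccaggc
Rpl38, chr11:114668570-114668599, plus strand: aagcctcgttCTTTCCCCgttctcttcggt
Rps6, chr4:86857348-86857377, minus strand: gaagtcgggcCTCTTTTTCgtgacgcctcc
Rps15a, chr7:118116128-118116157, minus strand: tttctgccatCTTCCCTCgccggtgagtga
Rpl39, chrX:37085203-37085232, minus strand: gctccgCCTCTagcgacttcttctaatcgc
Rpl39l, chr16:10170218-10170247, plus strand: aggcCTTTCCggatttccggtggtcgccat
Rpl22l1, chr3:28805498-28805527, plus strand: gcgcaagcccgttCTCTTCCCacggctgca
Rps27l, chr9:66946076-66946105, plus strand: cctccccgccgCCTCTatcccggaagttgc

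In Rpl39 and Rpl39l the run lies 4 and 6 bases before the annotated start, in Rps27l it lies 1 base after it, and in Rpl22l1 it lies 3 bases after it. A run of this kind at an annotated start is a match of letters, and annotated starts can differ from the starts used in these cells.

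Depth was recovered from the deposited values and ranged from 84.2 to 141.7 M counting units per library (1 M is 1000000). The values are FPKM, fragments per kilobase of exon per unit of depth, on an inferred scale of 10 M units, which makes them some 10 times larger than the usual FPKM. Daxx itself averaged 61.7 ± 0.962 FPKM in Daxx-null and 248 ± 14.9 FPKM in wild-type retinoic acid cultures, 56.0 ± 1.58 and 420 ± 16.5 FPKM in 2i, and 71.5 ± 2.58 and 326 ± 24.03 FPKM in serum (SD, n = 3 each). All 9 Daxx-null libraries lay below all 9 wild-type libraries. The 8 stem cell markers summed to 556 to 926 FPKM in the 6 retinoic acid libraries and to 28095 to 36189 FPKM in the 6 serum libraries. The 8 neural markers summed to 930 to 1619 FPKM in retinoic acid and to 534 to 624 FPKM in serum. One 2i library stood apart in both sums: Daxx-null replicate 2 summed to 9682 FPKM for the stem cell markers and 1889 FPKM for the neural markers. The other 5 libraries in 2i summed to 16403 to 24696 FPKM and 255 to 659 FPKM. In that library Dcx, a marker of young neurons, measured 177 FPKM, against 0 to 5.02 FPKM in the other 5. Wild-type 2i replicate 3 differed from its group in other markers. Its trophoblast markers summed to 65.9 FPKM, against 148.3 and 171.3 FPKM in replicates 1 and 2. Its endoderm markers summed to 38.6 FPKM, against 90.8 and 87.4 FPKM. The main counts on FPKM and most named calls that use Daxx-null 2i cultures are given with and without Daxx-null replicate 2. Counts of non-overlapping members, counts on quantile-normalised values and medians by unique sequence are given only with that library. The part of neural cells in these results was not tested.

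The members differed greatly in level. Rpl8, a protein beside the peptidyl transferase centre, was the highest at a mean of 12511 FPKM over 18 libraries. Rpl41, a very short basic protein, followed at 6284 FPKM, and Rps2, at the entry of the mRNA channel, at 5279 FPKM. Rpl3l, the striated-muscle paralog of Rpl3, was the lowest at 3.28 FPKM, followed by the core genes Rpl24 at 23.1 FPKM and Rps29 at 32.6 FPKM. The core means spanned 23.1 to 12511 FPKM, with a median of 118 FPKM. Of all 84 members, 12 averaged above 1000 FPKM and 34 below 100 FPKM. The ribosome holds these proteins in near-equal numbers, so the spread of FPKM is far wider than that of the proteins it holds.

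Most member transcripts share stretches of sequence with other annotated genes. In 81 of the 84 members at least 1 stretch of 50 bases also occurred in a transcript of another gene. Rpl39l and Rpl3l were among those with none. The share of 50-base stretches found in no other gene ran from 4.91% to 100% in the core members, with a median of 46.4%. It was 92.1% for Rpl8, 20.97% for Rps2 and 6.16% for Rpl5. Across the 77 core members this share and log2 mean level had a Pearson correlation of 0.31 and a Spearman correlation of 0.23. Genes are not independent replicates, and the points share libraries. Members with at least 60% of stretches unique (n = 32) had a median level of 223 FPKM, and the other 52 had a median of 103 FPKM. The handling of reads with several matches is not stated in the labels, so levels of members with close copies, and differences between members, are uncertain.

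**Figure D1:**
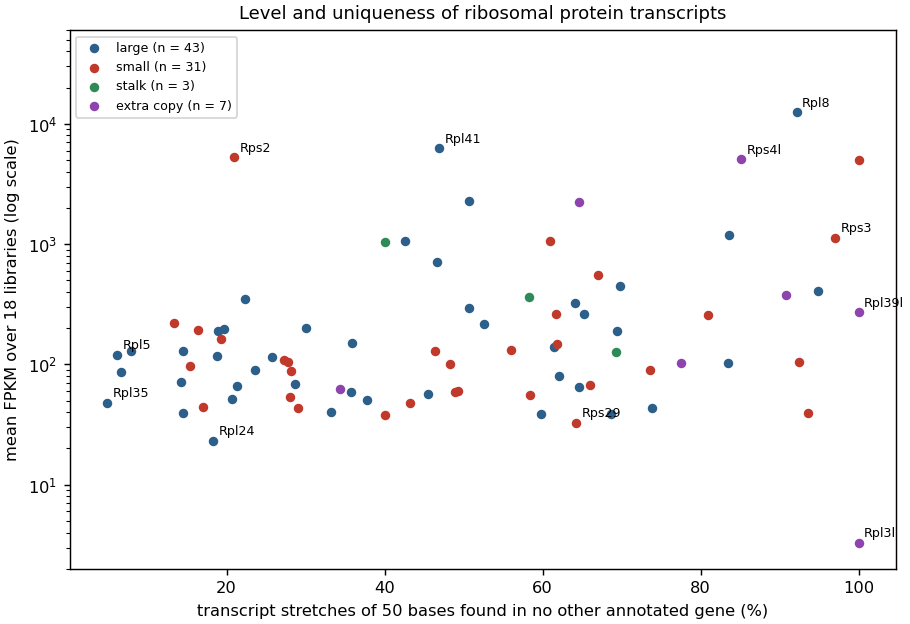
Each point is 1 of 84 ribosomal protein genes, with the percent of 50-base transcript stretches found in no other annotated gene on the x axis and mean FPKM over 18 libraries on a log y axis, coloured by class. Rps2 is high with 21.0% of stretches unique and Rpl8 is high with 92.1% unique.

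The members together took a smaller share of all gene signal in retinoic acid than in serum. In 2i the share varied between libraries, and the genotypes overlapped. The share counts Rps4l, which RefSeq lists as a transcribed pseudogene and which was highest in wild-type 2i cultures, as given below. Its part in the share was not worked out. The 3 libraries had 0.5302, 0.568 and 0.621% of summed FPKM times length in members in Daxx-null retinoic acid cultures, and 0.514, 0.536 and 0.565% in wild-type ones. The shares were 0.907, 0.603 and 0.691% in Daxx-null 2i cultures, against 0.881, 0.919 and 1.05% in wild-type 2i cultures. They were 1.03, 0.939 and 0.908% in Daxx-null serum cultures, against 0.913, 0.925 and 0.949% in wild-type serum cultures. All 6 retinoic acid libraries lay below all 6 serum libraries, and the genotypes overlapped in retinoic acid, 2i and serum. The deposited quantile-normalised values gave means of 0.595% and 0.559% in Daxx-null and wild-type retinoic acid cultures, 0.789% and 0.927% in 2i, and 0.858% and 0.854% in serum. The 4 highest genes carried 38.2 to 57.5% of the member signal. Without them the members took 0.289 to 0.336% of the signal in the 6 retinoic acid libraries and 0.437 to 0.505% in the 6 serum libraries, which again did not overlap. In bulk RNA, fewer cells of a type and less RNA per cell cannot be told apart.

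**Figure D2:**
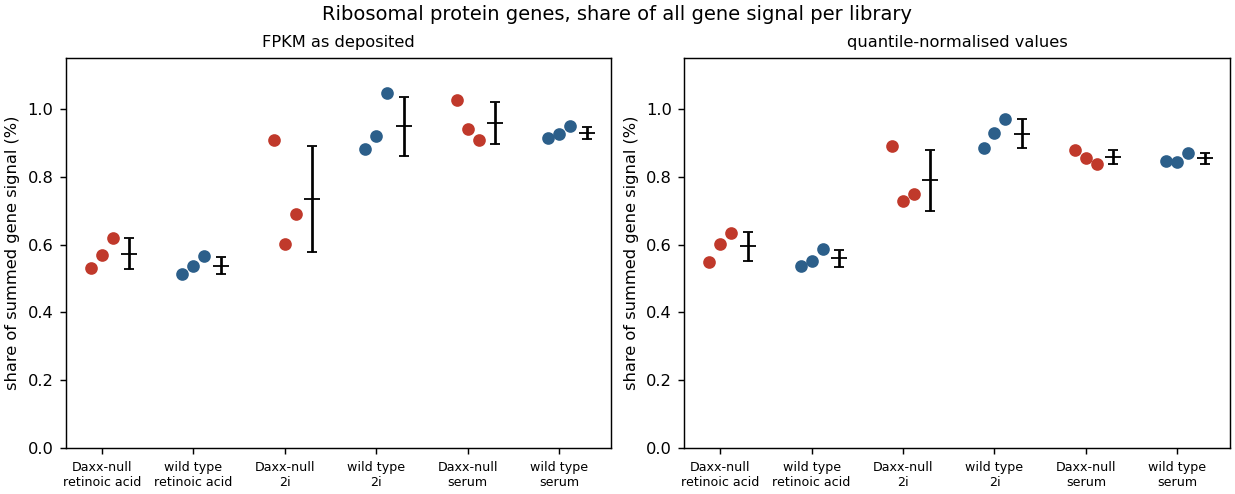
The share of all gene signal (%, FPKM times exon length) taken by the 84 members, with 1 point per library, Daxx-null in red and wild type in blue; the bar beside each group is mean ± SD (n = 3). The 6 retinoic acid libraries lie between 0.514 and 0.621% in the left panel, below every serum library.

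Among the 77 core members the highest group mean was in Daxx-null serum cultures for 57 genes and in wild-type serum cultures for 13. The lowest was in wild-type retinoic acid cultures for 56 genes and in Daxx-null ones for 12. Libraries of 1 group also moved together. The median deviation of the core members from their own mean over all libraries was 0.30, -0.25 and -0.04 on the log2 scale in the 3 Daxx-null 2i libraries, and 0.02, 0.10 and 0.11 in the wild-type ones. Daxx-null 2i replicate 1 was the highest of its group for 70 core members, and replicate 2 was the lowest for 57. In wild-type retinoic acid cultures replicate 3 was the highest for 65, with deviations of -0.66, -0.55 and -0.25. The median coefficient of variation over core members was 22.0% in Daxx-null 2i cultures and 7.54 to 15.0% in the other 5 groups.

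**Figure D3:**
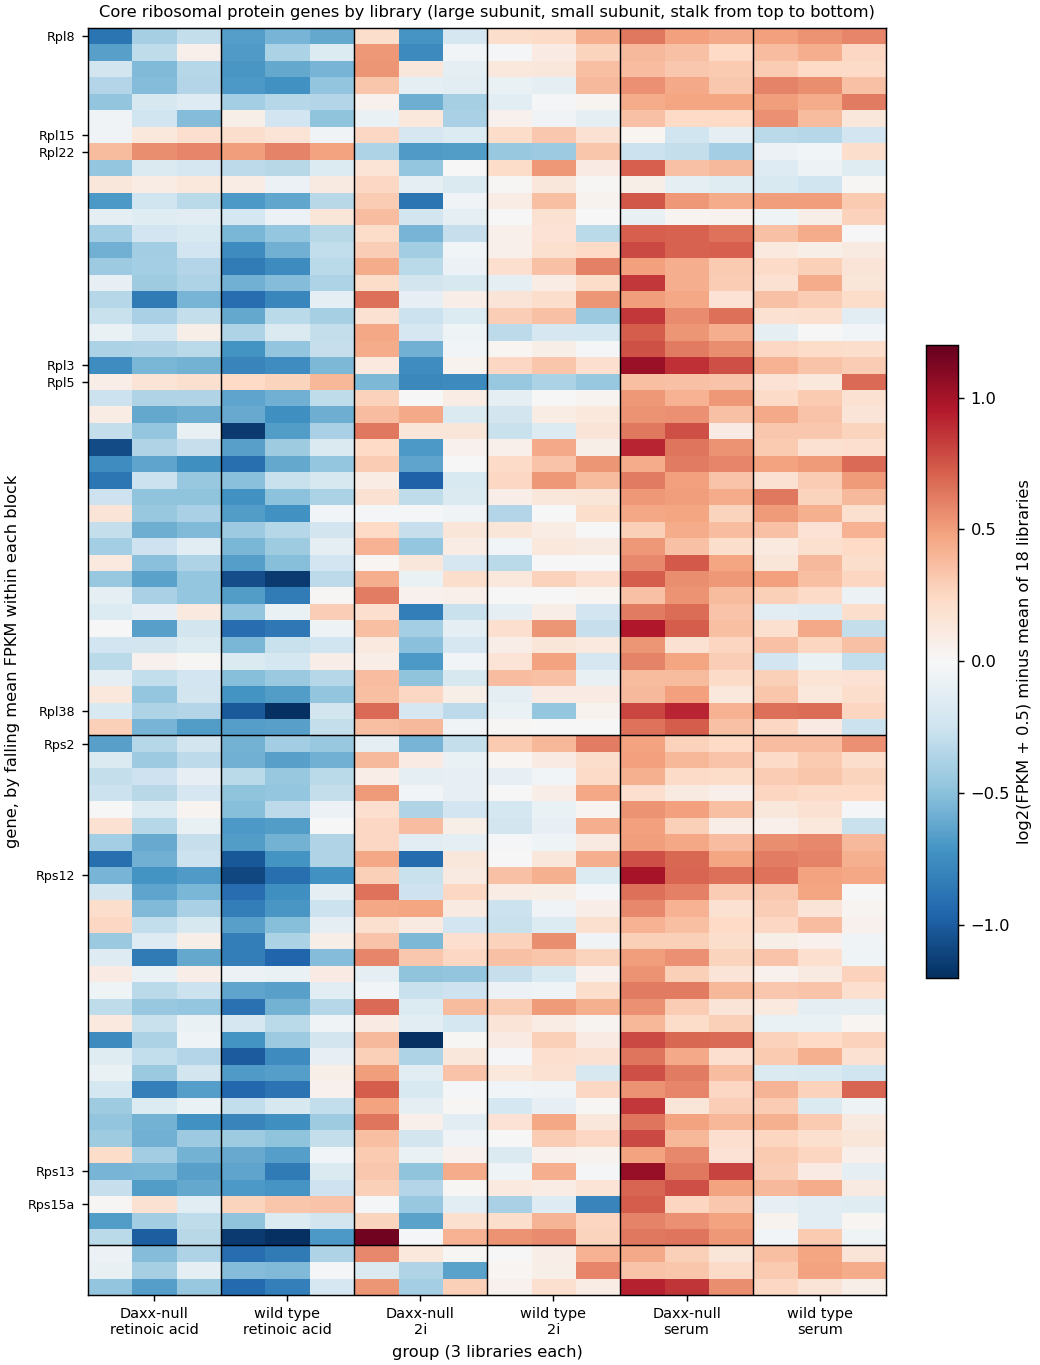
Rows are the 77 core members, of which 10 are labelled, and columns the 18 libraries in 6 groups of 3; colour is log2(FPKM + 0.5) minus the gene's mean over all libraries. The serum columns are mostly red and the retinoic acid columns mostly blue, with Rpl22 the other way round and 1 redder and 1 bluer library among the Daxx-null 2i columns.

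Nearly the whole set was lower in retinoic acid culture than in serum, in both genotypes. Genes were tested with limma on log2(FPKM + 0.5) and called at an adjusted p under 0.05. Of the 84 members, 75 were lower and 1 was higher in retinoic acid than in serum in Daxx-null cells, where 33.1% of 18002 tested genes were lower and 33% higher. In wild-type cells 67 were lower and 3 higher, where 34.1% of tested genes were lower and 30.4% higher. The median log2 difference of the members was -0.81 in Daxx-null and -0.72 in wild-type cells, and that of all tested genes was -0.02 and -0.05. In 66 members the fall was called in both genotypes, which is 88.0% of the Daxx-null calls and 98.5% of the wild-type calls. The libraries did not overlap for 76 lower and 2 higher members in Daxx-null cells, where 37.9% and 37.2% of tested genes did so. In wild-type cells they did not overlap for 69 lower and 3 higher members, where 39.4% and 35.8% of tested genes did so. The stem cell and neural marker sums given above differed between the same cultures, as did the endoderm markers (286.0 to 934.5 FPKM in retinoic acid and 18.3 to 73.0 FPKM in serum), the trophoblast markers (958.6 to 1579.9 and 47.3 to 179.6 FPKM) and the fibroblast markers (180.9 to 377.1 and 27.4 to 102.3 FPKM), and their part in the fall was not tested.

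Both subunits took part. In the large subunit 38 of 43 core genes fell in Daxx-null cells and 34 of 43 in wild-type cells, with medians of -0.81 and -0.72. In the small subunit 28 of 31 and 23 of 31 fell, with medians of -0.74 and -0.67, and all 3 stalk genes fell in both genotypes (on quantile-normalised values, 1 of 3 in Daxx-null and 3 of 3 in wild-type cells). Rps12, a protein of the small subunit head, measured 119.6, 107 and 110.2 FPKM in Daxx-null retinoic acid cultures, against 352, 288 and 279.9 FPKM in Daxx-null serum cultures (log2 difference -1.44, SE 0.16, adjusted p = 8.2e-07). It measured 82.4, 94.3 and 106 FPKM in wild-type retinoic acid cultures, against 279, 247 and 244 FPKM in wild-type serum cultures (log2 difference -1.44, SE 0.16, adjusted p = 9.2e-07). The cultures did not overlap in either genotype, and the log2 differences were alike in size.

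Rpl3, which reaches into the peptidyl transferase centre, measured 70.8, 81.2 and 80.1 FPKM in Daxx-null retinoic acid cultures, against 244, 219 and 203 FPKM in serum (log2 difference -1.51, SE 0.17, adjusted p = 7.1e-07). The wild-type values were 68.5, 70.6 and 81.8 FPKM in retinoic acid and 159, 151 and 147 FPKM in serum (log2 difference -1.05, SE 0.17, adjusted p = 4.2e-05). Rpl3 stood at a like level in both genotypes in retinoic acid, and the Daxx-null serum libraries were higher than the wild-type ones. Rps13 averaged 27.3 ± 1.03 FPKM in Daxx-null retinoic acid cultures and 74.1 ± 10.6 FPKM in serum, and 28.5 ± 7.19 and 44.4 ± 6.198 FPKM in the wild-type cultures (SD, n = 3 each), with log2 differences of -1.42 and -0.65. Its wild-type call was lost without retinoic acid replicate 1 or 2 or serum replicate 1, with log2 differences of -0.61 to -0.50. The stalk gene Rplp2 had log2 differences of -1.31 in Daxx-null and -0.81 in wild-type cells. Rpl38, which mouse embryos need for translation of Hox mRNAs, had -1.01 and -1.35.

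A few members stood outside this fall. Rpl22, a large-subunit protein that also binds RNA outside the ribosome, was higher in retinoic acid in both genotypes. It measured 503, 569 and 579 FPKM in Daxx-null retinoic acid cultures, against 322, 317 and 290.5 FPKM in serum (log2 difference 0.83, SE 0.16, adjusted p = 2.9e-04). In wild-type cultures it measured 548, 582 and 539.6 FPKM in retinoic acid, against 369, 378 and 447 FPKM in serum (log2 difference 0.49, SE 0.16, adjusted p = 0.0146), and this call was lost without wild-type serum replicate 1 (log2 difference 0.43). The libraries of the cultures did not overlap in either genotype. Rpl15 (log2 difference 0.41, SE 0.11, adjusted p = 0.00451) and Rps15a (log2 difference 0.44, SE 0.16, adjusted p = 0.0289) were higher in wild-type cells. Rps15a was instead lower in Daxx-null cells (log2 difference -0.41, SE 0.16, adjusted p = 0.0375), a call lost without Daxx-null serum replicate 1 (-0.27) and without Daxx-null retinoic acid replicate 1 or 3.

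Rps15a measured 39.00, 43.9 and 35.4 FPKM in Daxx-null retinoic acid cultures, 46.5, 48.9 and 48.9 FPKM in wild-type ones, 64.1, 46.3 and 48.5 FPKM in Daxx-null serum cultures and 36.1, 35.3 and 34.8 FPKM in wild-type ones. Wild-type serum cultures had the lowest mean of these 4 groups, and their libraries overlapped those of Daxx-null retinoic acid cultures. The files give Rps15a an exon length of 5127 bases, the longest of the members, whose median is 721 bases, so its FPKM covers much more than a short ribosomal protein transcript. The call of Rps15a in wild-type cells was lost in the quantile-normalised table, where its log2 difference was 0.31 (adjusted p = 0.141). It was also lost without any 1 of 5 of the 6 wild-type libraries, all but retinoic acid replicate 1, with log2 differences of 0.43 to 0.45.

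In retinoic acid against serum, members with mostly unique sequence fell by a like amount. Among the 32 members with at least 60% unique stretches the median log2 difference was -0.75 in Daxx-null and -0.67 in wild-type cells, and among the other 52 it was -0.83 and -0.75. Among the 14 members with a tract at an annotated start, 13 fell in Daxx-null and 10 in wild-type cells, with medians of -0.89 and -0.72. Among the 49 other members with a listed start, 42 and 39 fell, with medians of -0.78 and -0.71. Many members are short, and the other 2580 tested genes of at most 1000 bases had medians of -0.27 and -0.28. The 77 mitochondrial ribosomal protein genes, which serve a separate ribosome, had medians of -0.45 and -0.41, with 50 lower and 0 higher in Daxx-null cells and 49 lower and 2 higher in wild-type cells.

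Genes that build ribosomes were lower as well. Of 46 tested genes of nucleolar ribosome assembly, 45 fell in Daxx-null and 42 in wild-type cells, with medians of -1.06 and -0.86. Bop1, a factor of large-subunit maturation, averaged 210 ± 8.40 FPKM in Daxx-null retinoic acid cultures and 527 ± 20.9 FPKM in serum, and 168 ± 9.49 and 396 ± 18.5 FPKM in the wild-type cultures (SD, n = 3 each). Of 14 tested genes of RNA polymerase I and its factors, 13 fell in both genotypes, with medians of -0.76 and -0.62. All 10 host genes of small nucleolar RNAs fell in both, with medians of -0.91 and -0.90. Of 20 translation factors whose transcripts carry a TOP tract, 13 fell and 2 rose in Daxx-null cells, and 14 fell and 2 rose in wild-type cells. The 19 genes of mTORC1 and TOP control had 6 lower and 4 higher in Daxx-null cells and 8 lower and 4 higher in wild-type cells.

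Fewer members differed between 2i and serum, and more did so in Daxx-null than in wild-type cells. In Daxx-null cells 49 members were lower and 2 higher in 2i than in serum, where 21.8% of tested genes were lower and 41.8% higher. The median of the members was -0.42 and that of all tested genes was 0.28. In wild-type cells 10 were lower and 6 higher, where 24.8% and 24.7% of tested genes were, with medians of -0.17 for the members and -0.02 for all tested genes. All 10 members lower in wild-type cells were also lower in Daxx-null cells, where they are 20.4% of the 49. The libraries did not overlap for 44 lower and 2 higher members in Daxx-null cells, where 21.9% and 43% of tested genes did so, and for 23 and 8 in wild-type cells, where 30.6% and 27.7% did so. Without Daxx-null 2i replicate 2 the count in Daxx-null cells was 36 lower and 2 higher. In Daxx-null cells the stem cell markers summed to 9682 to 19625 FPKM in 2i and 30290.3 to 36189 FPKM in serum, the trophoblast markers to 630.9 to 818.2 and 47.3 to 81.8 FPKM, and the endoderm markers to 226.1 to 326.9 and 18.3 to 21.3 FPKM. Their part in this difference was not tested. In wild-type cells the 10 lower became 4 without 2i replicate 1, 5 without serum replicate 1, and 6 without 2i replicate 2 or without serum replicate 2. Without 2i replicate 3 they became 12. In Daxx-null cells the 32 members with at least 60% unique stretches had a median of -0.34, and the other 52 had -0.56. On quantile-normalised values these medians were -0.31 and -0.68. In wild-type cells the medians were -0.11 and -0.19 on FPKM. The part of shared sequence in these differences was not tested.

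Rpl5, which with Rpl11 and 5S ribosomal RNA forms the particle that can bind Mdm2, was lower in 2i in both genotypes. It measured 79.7, 67.4 and 68.04 FPKM in Daxx-null 2i cultures, against 148, 148 and 147 FPKM in serum (log2 difference -1.04, SE 0.12, adjusted p = 1.2e-06, and log2 difference -0.998 without replicate 2). In wild-type cultures it measured 84.5, 88.8 and 84.5 FPKM in 2i, against 131, 127 and 185 FPKM in serum (log2 difference -0.75, SE 0.12, adjusted p = 6.3e-05). Neither pair overlapped, and in the wild-type serum group replicate 3 was above the other libraries. Rpl11 averaged 41.4 ± 14.5 and 46.3 ± 5.15 FPKM in Daxx-null and wild-type 2i cultures, and 72.1 ± 8.45 and 48.4 ± 7.31 FPKM in serum. Rpl3 fell in Daxx-null 2i cultures (log2 difference -1.09, SE 0.17, adjusted p = 3.0e-05), with 129, 70.7 and 123 FPKM in 2i, against 244, 219 and 203 FPKM in serum, and was still called without replicate 2 (log2 difference -0.81). The call of Rpl15 as higher in wild-type 2i cultures rested on 517, 557 and 505 FPKM, against 354, 351 and 379 FPKM in serum (log2 difference 0.54, SE 0.11, adjusted p = 9.0e-04).

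In serum a small part of the set, 15.5% of members, was called higher in Daxx-null than in wild-type cells. In Daxx-null serum cultures 13 members were higher than in wild type and 0 lower, where 9.29% of tested genes were higher and 18.9% lower. At an unadjusted p under 0.05, 22 members differed. The median log2 difference of the members was 0.20, and that of all tested genes was -0.12. The libraries did not overlap for 33 higher and 4 lower members, where 19.1% and 35.6% of tested genes did so. The endoderm markers summed to 18.3 to 21.3 FPKM in Daxx-null and 55.6 to 73.0 FPKM in wild-type serum cultures, and the fibroblast markers to 27.4 to 34.3 and 60.8 to 102.3 FPKM, and their part in the difference was not tested. The 13 were 6 of the large subunit, among them Rpl3, Rpl29 and Rpl31, 5 of the small subunit, among them Rps6 and Rps13, the stalk gene Rplp2 and the extra copy Rpl7l1. Leaving out 1 library at a time gave 5 to 10 calls, the fewest without Daxx-null replicate 1 (5), wild-type replicate 3 (6) and wild-type replicate 2 (8). The share of all tested genes was not worked out for these fits, so whether the members stayed above it is not known.

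Rpl31, near the mouth of the exit tunnel, measured 330.4, 312 and 314 FPKM in Daxx-null serum cultures, against 206, 200.2 and 205 FPKM in wild-type ones (log2 difference 0.65, SE 0.15, adjusted p = 0.00412). Every Daxx-null library was above every wild-type library, and the wild-type libraries were close together. Rps13 measured 85.5, 64.4 and 72.6 FPKM, against 50.7, 44.3 and 38.3 FPKM in wild type (log2 difference 0.73, SE 0.23, adjusted p = 0.0244). Rpl29 measured 60.04, 55.2 and 48.8 FPKM, against 33.6, 37.5 and 32.1 FPKM (log2 difference 0.66, SE 0.20, adjusted p = 0.0222). For both genes the groups did not overlap, but each call was lost without Daxx-null replicate 1 (log2 differences 0.63 and 0.59) or wild-type replicate 3 (0.63 and 0.61). The Rps13 call was also lost without Daxx-null replicate 3 or wild-type replicate 2, and the Rpl29 call without Daxx-null replicate 2 or wild-type replicate 1. Rplp2 (log2 difference 0.62, SE 0.20, adjusted p = 0.0332) lost its call without any 1 of 5 libraries and Rpl3 (log2 difference 0.54, SE 0.17, adjusted p = 0.0231) without any 1 of 4, whereas Rpl31 kept its call without each of the 6 libraries. Rps6, the protein phosphorylated by the S6 kinases, had the smallest called difference (log2 difference 0.35, SE 0.11, adjusted p = 0.0256), which was lost without any 1 of 4 libraries, Daxx-null replicate 1 or 3 and wild-type replicate 1 or 2.

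Some related gene lists had calls in the same direction in serum and others had calls both ways. Of the 46 nucleolar assembly genes 19 were higher in Daxx-null serum cultures and 0 lower, and of the 14 RNA polymerase I genes 5 were higher and 0 lower. Nop58, a core protein of box C/D small nucleolar particles, averaged 2020 ± 132 FPKM in Daxx-null and 992 ± 121 FPKM in wild-type serum cultures. Of the 77 mitochondrial ribosomal protein genes 11 were higher and 0 lower. Myc, a transcription factor that acts on many of these genes, averaged 521 ± 17.99 FPKM in Daxx-null and 110 ± 34.7 FPKM in wild-type serum cultures (log2 difference 2.29, SE 0.33, adjusted p = 1.6e-04). The 11 genes of the Myc network had 3 higher and 3 lower, the 19 genes of mTORC1 and TOP control 3 and 3, the 20 TOP translation factors 3 and 1, and the 10 small nucleolar RNA host genes 2 and 1.

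In 2i few members were called between the genotypes. With FPKM as deposited and all 18 libraries fitted, the share called lower (11.9%) was below that of all tested genes. Of the 84 members, 10 were lower and 1 higher in Daxx-null than in wild-type 2i cultures, where 15.3% of tested genes were lower and 31.5% higher. The lower count depended on the fit: it was 1 with the compared groups alone, 23 when libraries were scaled by median ratios, and 21 once each chromosome's shift was taken out. The share of all tested genes was not worked out for these fits or for those without single libraries. Such counts cannot be set against it. The median of the members was -0.09, and that of all tested genes was 0.20. The libraries did not overlap for 8 lower and 3 higher members, where 15.5% and 32.3% of tested genes did so. Without Daxx-null replicate 2, the library with the neural markers, 6 were lower and 2 higher, and the median was 0.03. Without Daxx-null replicate 1, the highest library of its group, 25 were lower and 1 higher, and the median was -0.27. Without Daxx-null replicate 3, 8 were lower and 2 higher. With 2 libraries left out, Daxx-null replicate 2 and wild-type replicate 3, 4 were lower and 2 higher, and the median was 0.06. The sign of the median therefore rested on Daxx-null replicate 2. Marker genes of other cells also differed between these groups. The trophoblast markers summed to 704.7, 818.2 and 630.9 FPKM in Daxx-null 2i cultures, against 148.3, 171.3 and 65.9 FPKM in wild-type ones. The endoderm markers summed to 269.7, 326.9 and 226.1 FPKM, against 90.8, 87.4 and 38.6 FPKM, and the retinoic acid response genes to 2495.8, 1928.7 and 2383.1 FPKM, against 1240.4, 1216.4 and 995.9 FPKM. Their part in the member results was not tested.

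Rps2 measured 4669, 3440.1 and 4141 FPKM in Daxx-null 2i cultures, against 6292, 6685 and 7733 FPKM in wild-type ones (log2 difference -0.76, SE 0.14, adjusted p = 3.9e-04). Rplp0, the base of the stalk, measured 313, 276 and 227 FPKM, against 360.4, 372 and 529.7 FPKM (log2 difference -0.62, SE 0.16, adjusted p = 0.0055). For these 2 genes the groups did not overlap, and both calls held when each of the 6 libraries was left out, with log2 differences of -0.65 and -0.63 without Daxx-null replicate 2. Those fits still used the spread of all groups. With the compared groups alone 1 member was called lower between the genotypes in 2i. At most 1 of the lower 2i calls named here and below was therefore kept in that fit. Rpl34 measured 80.7, 38.4 and 66.4 FPKM in Daxx-null 2i cultures, against 90.1, 109 and 98.9 FPKM in wild type (log2 difference -0.74, SE 0.21, adjusted p = 0.0103), a call that held without Daxx-null replicate 2 (-0.43) and was lost without it and wild-type replicate 3 together (-0.43). Rpl3 (log2 difference -0.45, SE 0.17, adjusted p = 0.0348) was no longer called without replicate 2, where its log2 difference was -0.18, or without any 1 of the wild-type libraries. Rpl8 averaged 10387 ± 3236 FPKM in Daxx-null and 14454 ± 1280.0 FPKM in wild-type 2i cultures (log2 difference -0.52, SE 0.20, adjusted p = 0.0392), and its libraries overlapped. Its call held without Daxx-null replicate 1 and was lost without any other 1 of the 6 libraries, with a log2 difference of -0.28 without Daxx-null replicate 2. Among the nucleolar assembly genes 24 were lower and 2 higher in Daxx-null 2i cultures, and among the RNA polymerase I genes 5 were lower and 1 higher. Without Daxx-null replicate 2 these counts were 19 and 3, and 3 and 2.

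In retinoic acid 1 of the 84 members was lower in Daxx-null than in wild-type cultures and 0 were higher, where 2.27% of tested genes were lower and 0.222% higher. By limma 5 members had an unadjusted p under 0.05, and on quantile-normalised values 1 member was lower and 0 were higher (1.28% and 0.283% of tested genes). The called gene was Rpl39l, and its call was lost with the compared groups alone. The median of the members was 0.13 and that of all tested genes was -0.05, and the libraries did not overlap for 8 higher and 4 lower members, where 9.75% and 17.7% of tested genes did so. The core members ran from -0.29 for Rps15a to 0.56 for Rps29, and 0 of the 77 were called.

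**Figure D4:**
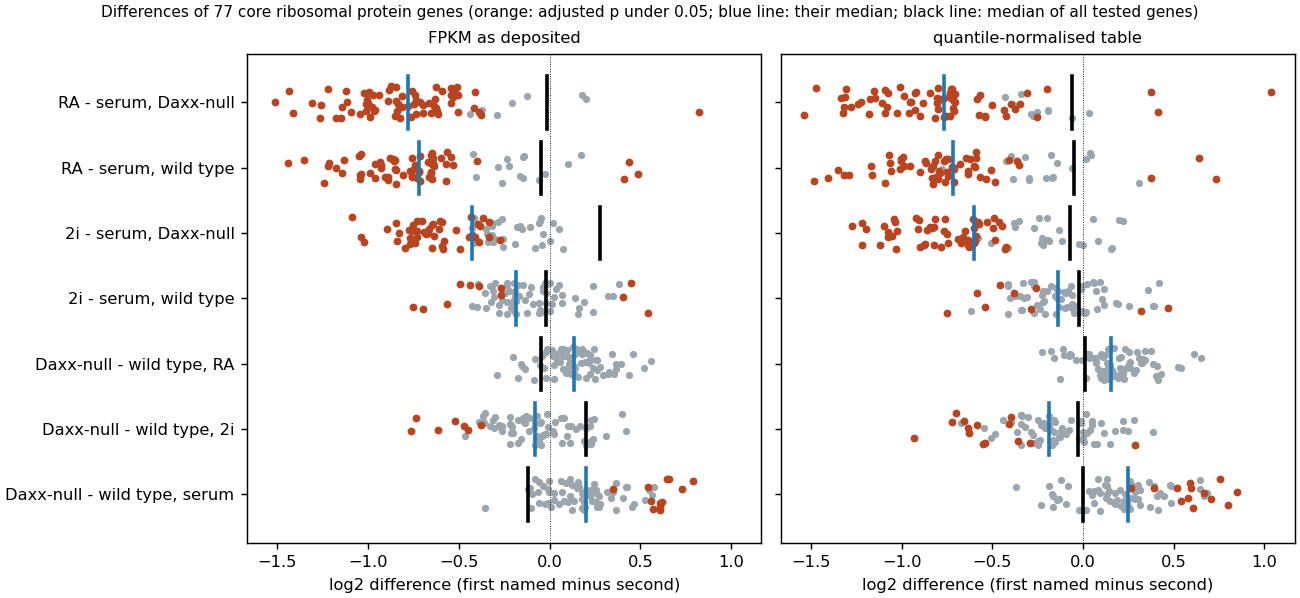
Each point is 1 of 77 core members in 1 comparison, with its log2 difference on the x axis (left, FPKM as deposited; right, the quantile-normalised table), orange when called; the blue line is the median of the core members and the black line that of all tested genes. The retinoic acid comparisons lie left of zero at medians of -0.78 and -0.72 in the left panel, and the black line stays near zero.

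All 7 extra copies were lower in retinoic acid than in serum in wild-type cells and 6 of 7 in Daxx-null cells, with 0 higher. Of all tested genes 34.1% and 33.1% were lower. The medians of the copies were -1.01 and -0.93. In 2i against serum copies were called in both directions in each genotype. Rpl39l is an autosomal copy of X-linked Rpl39, whose protein lines the exit tunnel, and is best known from testis. It lies at chr16:10170321-10175004 (mm9), and Rpl39 at chrX:34622513-34625217. Rpl39l measured 2.39, 0.7400 and 0.811 FPKM in Daxx-null retinoic acid cultures, against 6.55, 7.85 and 9.52 FPKM in wild-type ones (log2 difference -2.33, SE 0.36, adjusted p = 0.00134). Its values in these Daxx-null cultures lay near the floor. It measured 951, 338 and 740.5 FPKM in Daxx-null and 664, 801 and 541 FPKM in wild-type 2i cultures, and 171, 139 and 123 FPKM in Daxx-null and 151, 133 and 84.7 FPKM in wild-type serum cultures. The order was 2i above serum above retinoic acid in both genotypes with no overlap between cultures, and the genotypes overlapped in 2i and in serum.

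From retinoic acid to serum and 2i Rpl39l thus spanned the widest range of all members. Its log2 difference between retinoic acid and serum was -6.42 in Daxx-null and -3.84 in wild-type cells, and between 2i and serum it was 2.11 (2.55 without Daxx-null 2i replicate 2) and 2.46. Its parent Rpl39 measured 80.1, 70.7 and 91.7 FPKM in Daxx-null and 43.7, 61.01 and 74.7 FPKM in wild-type retinoic acid cultures, and averaged 123 ± 25.5 and 92.5 ± 14.7 FPKM in 2i and 141 ± 32.6 and 121 ± 2.77 FPKM in serum. The ratio of Rpl39l to Rpl39 was 0.0164 ± 0.0117 in Daxx-null and 0.135 ± 0.0127 in wild-type retinoic acid cultures, 5.42 ± 2.003 and 7.44 ± 2.2 in 2i, and 1.05 ± 0.187 and 1.01 ± 0.265 in serum (SD, n = 3 each). In the 3 Daxx-null 2i libraries it was 6.26, 3.13 and 6.87, with replicate 2 the lowest. Rpl39l thus exceeded its parent in 2i, was near it in serum and was far below it in retinoic acid. All of its 50-base stretches were unique among annotated transcripts. Rpl10l, the autosomal copy of X-linked Rpl10 that the name rule left out, averaged 0.804 ± 0.454 FPKM in Daxx-null and 17.2 ± 5.12 FPKM in wild-type retinoic acid cultures, 1747 ± 455 and 2789 ± 82.4 FPKM in 2i, and 173 ± 31.1 and 442 ± 54.1 FPKM in serum.

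Rps4l, a copy of X-linked Rps4x that RefSeq lists as a transcribed pseudogene, was higher than its parent in every group. It measured 7502, 4813 and 5543 FPKM in Daxx-null 2i cultures, against 9676, 9798 and 12636 FPKM in wild-type ones (log2 difference -0.86, SE 0.16, adjusted p = 5.7e-04), with no overlap, and the log2 difference was -0.72 without Daxx-null replicate 2. It averaged 1464 ± 149 and 1836 ± 199 FPKM in Daxx-null and wild-type retinoic acid cultures, and 5465 ± 555 and 4963 ± 695 FPKM in serum. It fell in retinoic acid against serum in both genotypes (-1.90 and -1.43) and rose in 2i in wild-type cells (log2 difference 1.11, SE 0.16, adjusted p = 4.3e-05). Rps4x averaged 87.2 ± 8.902 and 73.5 ± 15.97 FPKM in retinoic acid, 88.9 ± 8.46 and 103 ± 11.7 FPKM in 2i, and 148 ± 13.2 and 123 ± 6.56 FPKM in serum. Of the 50-base stretches of Rps4x 27.8% were unique, and the 11 genes that shared the others were all pseudogenes. For Rps4l 85.1% were unique, and the 1 gene that shared the rest was a pseudogene. How reads shared with such copies were counted is uncertain. Rpl32l, added as a copy of Rpl32 after its values were seen, averaged 2052 ± 739 FPKM in Daxx-null and 3256 ± 197 FPKM in wild-type 2i cultures (log2 difference -0.73, SE 0.21, adjusted p = 0.00958). Without Daxx-null replicate 2 its log2 difference was -0.42, and without that library and wild-type replicate 3 the call was lost (-0.40).

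Rps27l, the paralog of Rps27 that is a p53 target in human cells, was the member that rose in Daxx-null 2i cultures. It measured 213, 191 and 138 FPKM in Daxx-null 2i cultures, against 96.7, 101 and 94.4 FPKM in wild-type ones (log2 difference 0.86, SE 0.18, adjusted p = 0.00133), and the groups did not overlap. The log2 difference was 0.81 without Daxx-null replicate 2. Rps27 measured 80.2, 53.3 and 58.2 FPKM, against 49.7, 53.6 and 57.9 FPKM in wild type. The ratio of Rps27l to Rps27 was 2.87 ± 0.635 (2.65, 3.58 and 2.37) in Daxx-null and 1.82 ± 0.168 in wild-type 2i cultures (SD, n = 3 each). Rpl7l1, a paralog of Rpl7, was higher in Daxx-null serum cultures and lower in Daxx-null 2i cultures. It measured 590.4, 522 and 522 FPKM in Daxx-null serum cultures, against 352, 358 and 356 FPKM in wild type (log2 difference 0.61, SE 0.12, adjusted p = 0.00181). In 2i it measured 376, 254 and 303 FPKM, against 518, 559.9 and 414 FPKM (log2 difference -0.68, SE 0.12, adjusted p = 3.9e-04), and the log2 difference was -0.55 without Daxx-null replicate 2.

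Rpl22l1, which can take the place of Rpl22 in the ribosome, went the other way from its parent in wild-type retinoic acid cultures. It measured 46.5, 45.8 and 49.6 FPKM in retinoic acid, against 102, 93.1 and 92.7 FPKM in serum (log2 difference -1.01, SE 0.18, adjusted p = 1.5e-04). In Daxx-null cells it measured 49.7, 57.8 and 74.3 FPKM in retinoic acid, against 89.7, 62.5 and 74.5 FPKM in serum, which was not called. The ratio of Rpl22l1 to Rpl22 was 0.110 ± 0.0163 in Daxx-null and 0.0851 ± 0.00660 in wild-type retinoic acid cultures, 0.2003 ± 0.0253 (0.227, 0.176 and 0.198) and 0.136 ± 0.0326 in 2i, and 0.244 ± 0.0420 and 0.243 ± 0.0351 in serum. Rpl3l stayed near the floor, at 0.470 ± 0.260 and 1.13 ± 0.409 FPKM in Daxx-null and wild-type retinoic acid cultures, and 5.52 ± 0.448 and 7.15 ± 0.838 FPKM in serum. It fell in retinoic acid in both genotypes (-2.66 and -2.26).

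**Figure D5:**
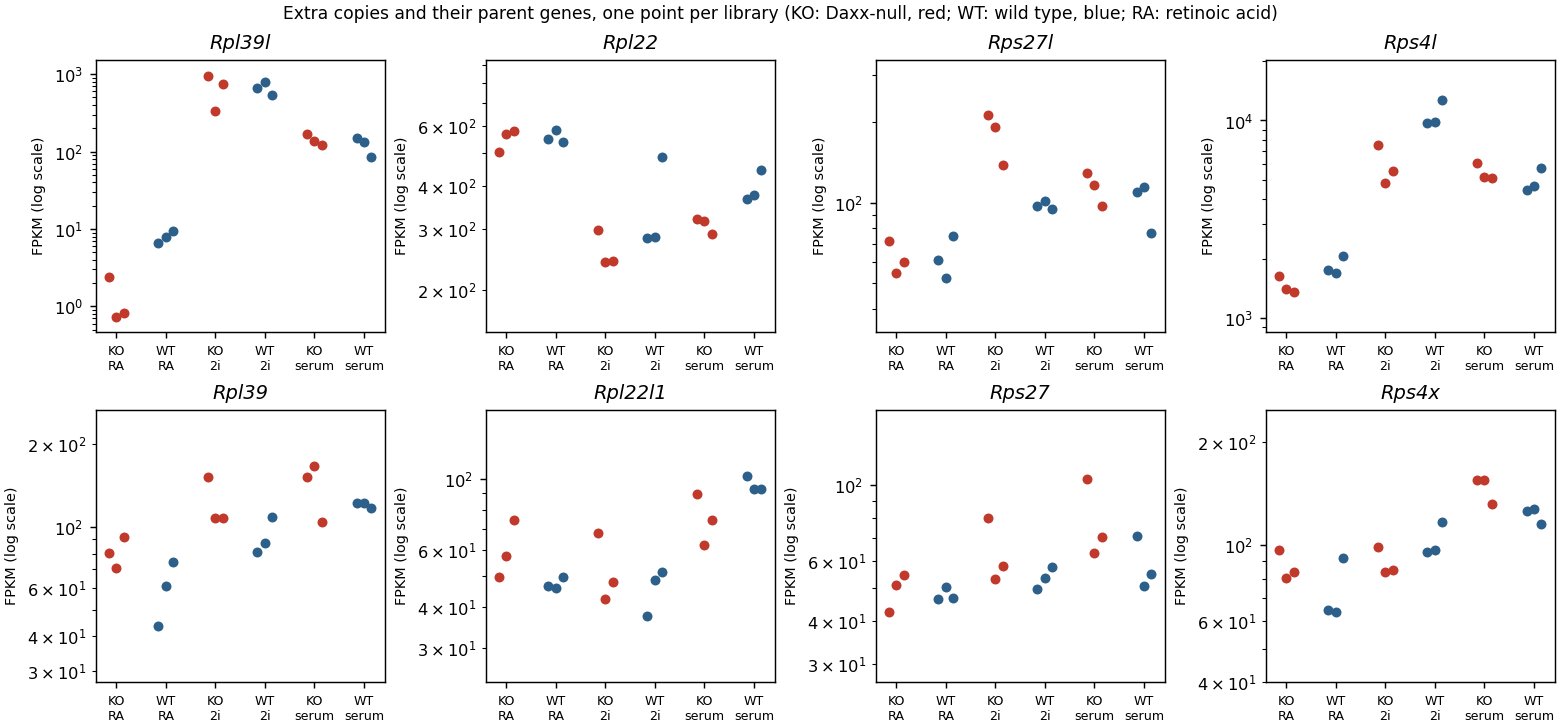
FPKM on a log axis with 1 point per library (Daxx-null red, wild type blue) for Rpl39l, Rpl22, Rps27l and Rps4l above and Rpl39, Rpl22l1, Rps27 and Rps4x below. Rpl39l spans 0.740 to 951 FPKM over the 18 libraries, whereas Rpl39 spans 43.7 to 167 FPKM.

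The quantile-normalised table gives every library the same distribution of values. In it the retinoic acid fall and the Daxx effect in serum had counts close to those above. More members were lower in Daxx-null 2i cultures. In retinoic acid against serum 70 members were lower and 3 higher in Daxx-null cells (34.5% and 31.3% of tested genes), and 63 and 3 in wild-type cells (34% and 30.9%). In 2i against serum 55 were lower and 3 higher in Daxx-null cells (34.2% and 28.5%), and 8 and 5 in wild-type cells (25% and 24.5%). The Daxx effect in serum had 14 higher and 0 lower (12.3% and 11.9%), and in 2i it had 17 lower and 2 higher (23.4% and 20.7%). The median of all tested genes in the 2i Daxx comparison was -0.03 in that table, against 0.20 in FPKM. The median of the members was -0.19 in that table, and lay below that of all genes on both scales with all libraries. Without Daxx-null 2i replicate 2 the sign of the FPKM median of the members changed, as given above. The quantile-normalised values were not fitted without that library.

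The Daxx effect differed between 2i and serum for 13 members: 12 had a lower effect in 2i and 1 a higher one, where 11.5% of tested genes had a lower and 31.5% a higher effect. On quantile-normalised values 25 members were lower and 0 higher, where 19.3% and 17.2% of tested genes were. The median of the members was -0.31 and that of all tested genes was 0.34. It differed between retinoic acid and serum for 2 members, both lower, where 3.38% of tested genes were lower and 4.82% higher. On quantile-normalised values 2 members were lower and 0 higher, where 3.73% and 3.17% of tested genes were. By FPKM these genes are Rpl39l and Rps15a.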

How the data were processed

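RNA of 18 libraries was enriched with oligo(dT) beads, depleted of ribosomal RNA and sequenced, per the labels' protocols. Per the submitters' processing notes the tools were Bowtie2 2.2.6, HOMER 4.8 and limma, with mouse build mm9. Strand and the counting of reads with several matches were not given in the sources used here. The deposited FPKM values are per gene and library. Low values were whole multiples of the worth of 1 counting unit (within 0.1), which gave depths of 84.2 to 141.7 M and an inferred scale of 10 M. The authors also deposited a table of quantile-normalised log2 values, used here as an alternative.

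Genes with at least 1 FPKM in at least 3 libraries (18002 of 24505) were fitted with limma 3.58.1 in R 4.3.3 as 6 group means on log2(FPKM + 0.5), with an intensity trend. A pseudocount understates the change of low genes. P-values were adjusted by the Benjamini-Hochberg method over all 18002 genes in each comparison and called under 0.05. All 84 members passed the filter. Alternatives were the quantile-normalised table, median-ratio scaling, a pseudocount of 1, no filter, the compared groups alone, the replicate number as a block, chromosome shifts removed, and each library left out. Leaving out 2 libraries in 2i together was chosen after seeing the data. The fit was tested on simulated data.

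Genes named were Daxx, the extra copies with their parents, the 5 called members with the most positive and the 5 with the most negative log2 difference in each comparison, the 3 highest and 3 lowest members, and at most 3 called genes of each related list; other members named, Rpl11 and Rpl10l were chosen after their values were seen. The members and lists were chosen with earlier results of these data known. Several comparisons share libraries, such as the serum ones, so their counts are not independent. Transcript stretches came from GENCODE vM21 and start sequences from RefSeq (GRCm38.p6), while gene positions are those of the deposited files (mm9). Single-library precision is limited by counting, which these p-values include only through the spread between replicates. Some members are not reported here by name.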

Additional observations from a re-analysis of the deposited data

Results flagged for a closer look

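The effect of Daxx loss differed between 2i and serum for 13 members, by limma's test of the difference itself on the log2 scale. A lower effect in 2i was called for 14.3% of members, near the 11.5% of all tested genes. A higher effect was called for 1.19% of members, against 31.5% of all tested genes. The effect in 2i was lower than in serum for the paralog and large-subunit genes Rpl7l1 (-1.30, SE 0.18, adjusted p = 4.8e-05), Rpl29 (-1.02, SE 0.28, adjusted p = 0.00898), Rpl3 (-0.99, SE 0.23, adjusted p = 0.0033), Rpl10a (-0.99, SE 0.21, adjusted p = 0.00158), Rpl34 (-0.89, SE 0.30, adjusted p = 0.0265), Rpl31 (-0.86, SE 0.21, adjusted p = 0.00373), Rpl27 (-0.75, SE 0.25, adjusted p = 0.0241), Rpl15 (-0.47, SE 0.16, adjusted p = 0.027). It was also lower for Rps4l (-1.004, SE 0.23, adjusted p = 0.00286), Rps7 (-0.92, SE 0.27, adjusted p = 0.0119), Rps2 (-0.67, SE 0.20, adjusted p = 0.0124), Rps6 (-0.52, SE 0.15, adjusted p = 0.0124). It was higher for Rps27l (0.67, SE 0.26, adjusted p = 0.0493). Without Daxx-null 2i replicate 1 the count of members with a lower effect in 2i was 38, and leaving out any other single library gave 9 to 14. The share of all tested genes was not worked out for the fits without single libraries. The calls of Rpl15, Rpl27, Rpl34 and Rps27l were lost when some single libraries were left out, and those of the other 9 members held without each of the 12 libraries.

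The effect differed between retinoic acid and serum for Rpl39l (-2.59, SE 0.51, adjusted p = 0.00563) and Rps15a (-0.85, SE 0.23, adjusted p = 0.0346). Both had a lower effect in retinoic acid, and they are 2.38% of members, against 3.38% of all tested genes. The Rpl39l call held without each of the 12 libraries, and the Rps15a call was lost without any 1 of 10 of them.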

How the results depend on the processing

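No named value changed direction under any alternative. Of 92 named values, 80 kept their call in the quantile-normalised table, 89 under median-ratio scaling, 92 with a pseudocount of 1, 83 without the filter, 82 with chromosome shifts removed and 78 with the compared groups alone; over single libraries left out, 542 of 642 kept it. In the counts of members, the serum Daxx effect had 20 higher (median-ratio), 22 (chromosome shifts removed) or 23 with 1 lower (compared groups alone). The 2i Daxx effect had 2 higher and 17 lower (quantile-normalised), and 23 (median-ratio), 21 (chromosome shifts), 6 (no filter) or 1 lower (compared groups alone), and 2 higher and 4 lower without both 2i libraries. The retinoic acid Daxx effect had 0 lower with the compared groups alone. In Daxx-null cells 2i against serum had 1 higher with chromosome shifts removed and 31 lower with the compared groups alone, and retinoic acid against serum had 3 (quantile-normalised) or 2 higher (chromosome shifts). In wild-type cells 2i against serum had 5 lower with median-ratio factors and 5 once chromosome shifts were taken out, and 8 higher and 15 lower without both 2i libraries. The difference between 2i and serum had 0 higher and 25 lower (quantile-normalised), 39 (median-ratio) or 42 lower (chromosome shifts), and 0 higher without the filter and with the compared groups alone. The difference between retinoic acid and serum had 1 higher and 10 lower with the compared groups alone. The cause of these shifts was not tested. Among these alternatives the shares of all tested genes were worked out only on quantile-normalised values. Leaving out 1 library gave, for the Daxx effect, 5 to 10 higher and 0 lower (serum), 1 to 2 higher and 6 to 25 lower (2i), 0 higher and 1 lower (retinoic acid); 2 and 36 to 57 (Daxx-null) and 4 to 6 and 4 to 12 (wild type) for 2i against serum; 1 and 69 to 75 (Daxx-null) and 1 to 3 and 56 to 70 (wild type) for retinoic acid against serum; and 0 to 1 and 9 to 38, and 0 and 1 to 2, for the differences. Same-numbered libraries of the genotypes had correlations of -0.16 to 0.15, which show no pairing by number. With 3 libraries per group they cannot settle whether the numbers mark a shared batch. With the replicate number as a block the Daxx effect had 13 higher (serum), 1 higher and 9 lower (2i) and 1 lower (retinoic acid), and 91 of 92 named values kept their call. The 3 libraries per group and reads shared with gene copies limit what small differences can show.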
